A study of Homo sapiens with 8 samples.

Results

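The podocyte slit diaphragm and foot process were followed through 9 genes in AB8, a human podocyte-derived line: NPHS1, KIRREL1, CD2AP, MAGI2, TRPC6, SYNPO, MYO1E, ACTN4 and PODXL. They were chosen by name for their role, with earlier results of these data known, and all 9 were found among the 58395 Ensembl genes of the count table. Of these 9, 7 passed the filter on low counts that left 15637 genes for testing. The other 2, NPHS1 and TRPC6, are given by their reads alone.

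The podocyte is the epithelial cell that covers the glomerular capillary with interdigitating foot processes. Neighbouring foot processes are joined by the slit diaphragm, in which the immunoglobulin-superfamily proteins nephrin (NPHS1) and NEPH1 (KIRREL1) meet across the gap. Adaptors such as CD2AP and MAGI2 tie these receptors to actin, which is bundled and tensed in the foot process by ACTN4, SYNPO and MYO1E, while PODXL coats the free surface with negative charge. Podocyte lines in culture are known to keep only part of this set.

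RNA was sequenced from 4 non-induced libraries (labelled woDox) and 4 induced libraries (labelled Dox). All 8 carried the construct pIND21_hCrb2+GFP_S267A, which encodes inducible human CRB2 carrying S267A, together with GFP, at passage 3 to 8 after modification. Per the series title, induction with doxycycline lasted 48 h, and it is the only labelled difference between the groups. No cells without the construct were analysed here, so the drug, GFP, raised CRB2 and the S267A change cannot be told apart. The labels do not say whether the libraries came from separate cultures or from 1 clone, so p-values measure only the spread between these samples.

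Libraries held 16829454 to 23081616 counted reads. CRB2 ranged over 8.31 to 26.4 CPM (reads of a gene divided by the TMM-scaled library total, in units of 1e6 reads) without and 1734 to 4599 CPM with induction. Both libraries numbered 1 stood apart: over 11500 genes their deviations from the group means correlated at 0.911 with each other and at -0.775 to -0.617 with libraries 2 to 4 of the other group. The counts of genes that passed, and the changes of KIRREL1, PODXL, SYNPO and MYO1E, are given below with and without them. Among podocyte markers, LMX1B had 3 reads and PTPRO 16 over all 8 libraries, while WT1 averaged 2.86 CPM and PLA2R1 8.57 CPM. The endothelial markers KDR and EMCN, the mesangial marker ITGA8 and the tubular marker LRP2 had 0 reads. PAX8, a renal epithelial factor of parietal and tubular cells, averaged 409 CPM and the parietal marker CLDN1 149 CPM. Of 12 podocyte markers, 7 averaged at least 1 CPM, among them VIM (3068 CPM), FOXC2 (13.1 CPM) and NES (7.25 CPM), and 5 stayed below. The sum over the 12, mostly VIM, was 2569 to 3501 CPM without and 2349 to 3273 CPM with induction.

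Promoters of 4 of the genes are shown because they flank the 2 extremes of expression: NPHS1 and TRPC6 were almost without reads, while CD2AP and ACTN4 were abundant. Each is the RefSeq window (GRCh38.p14) from 250 bases before to 50 bases after a start site, on the gene's own strand. The NPHS1 and TRPC6 start sites lie 16783 and 288555 bases inside the longer GENCODE gene spans given below, and those of CD2AP and ACTN4 at the start of theirs. The windows are chr19:35852455-35852754 (minus strand, NPHS1), chr11:101583958-101584257 (minus strand, TRPC6), chr6:47477539-47477838 (plus strand, CD2AP) and chr19:38647399-38647698 (plus strand, ACTN4). Capitals mark CG dinucleotides.
NPHS1: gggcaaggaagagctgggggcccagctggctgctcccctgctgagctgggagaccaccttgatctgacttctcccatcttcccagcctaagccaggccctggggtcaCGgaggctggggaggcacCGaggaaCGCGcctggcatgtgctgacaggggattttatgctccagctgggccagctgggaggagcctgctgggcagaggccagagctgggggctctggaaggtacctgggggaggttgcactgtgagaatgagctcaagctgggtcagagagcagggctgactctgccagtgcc
TRPC6: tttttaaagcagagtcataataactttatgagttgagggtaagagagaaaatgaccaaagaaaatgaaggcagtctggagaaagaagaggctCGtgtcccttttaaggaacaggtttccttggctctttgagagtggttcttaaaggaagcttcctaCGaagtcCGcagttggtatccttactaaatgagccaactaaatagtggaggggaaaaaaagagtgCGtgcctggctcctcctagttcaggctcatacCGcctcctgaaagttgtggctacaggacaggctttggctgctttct
CD2AP: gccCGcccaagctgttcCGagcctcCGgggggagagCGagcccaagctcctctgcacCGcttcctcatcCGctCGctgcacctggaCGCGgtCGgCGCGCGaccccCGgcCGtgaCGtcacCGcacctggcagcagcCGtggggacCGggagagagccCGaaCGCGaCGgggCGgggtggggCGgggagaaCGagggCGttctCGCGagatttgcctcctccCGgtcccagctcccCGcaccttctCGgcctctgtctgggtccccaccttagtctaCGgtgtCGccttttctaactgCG
ACTN4: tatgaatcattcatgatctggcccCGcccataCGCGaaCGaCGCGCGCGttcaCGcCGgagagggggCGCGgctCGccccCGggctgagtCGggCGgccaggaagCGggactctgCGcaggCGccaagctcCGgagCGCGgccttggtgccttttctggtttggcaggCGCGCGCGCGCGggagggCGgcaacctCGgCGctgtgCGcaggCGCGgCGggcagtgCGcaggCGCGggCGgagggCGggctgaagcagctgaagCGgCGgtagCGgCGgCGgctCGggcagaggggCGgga

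The NPHS1 window held 4 CG dinucleotides and the TRPC6 window 5, against 35 in CD2AP and 47 in this ACTN4 window. The median over all 35116 RefSeq windows of this length was 14. Level and CG number did not follow one order across the matched genes: the MAGI2 window held 27 CG and MYO1E, a far more abundant transcript, 16. ACTN4 and SYNPO each have a further RefSeq start, with 4 and 6 CG, and the upstream SYNPO window held 12. The GC box GGGCGG, searched on both strands, was found 6 times in the upstream ACTN4 window, 3 times in CD2AP, 2 times and 1 time in the SYNPO windows and not in NPHS1, TRPC6, MAGI2 or MYO1E. At least 1 GC box was present in 45.0% of all windows. These are counts of letters, and the start site in use in AB8 cells is not known from gene-level counts. Of the 9 genes, 7 matched the promoter table, and KIRREL1 and PODXL did not.

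Levels of the 9 genes ran from among the most abundant transcripts down to the limit of detection. Divided by the length of the merged exons, ACTN4 averaged 152 CPM per kb over the 8 libraries, KIRREL1 60.4, CD2AP 35.2, MYO1E 16.6, SYNPO 3.94, PODXL 0.462 and MAGI2 0.0891. By merged exons each of these 7 stood above the next in 8 of 8 libraries. Among 16660 protein-coding genes with at least 1 read, 1.01% were higher than ACTN4, 3.65% higher than KIRREL1 and 7.28% higher than CD2AP. PODXL and MAGI2 ranked low, with 68.9% and 78.2% of these genes above them. MAGI2 has many annotated transcripts, and its level was 0.409 CPM per kb when divided by the longest one (6880 bases in place of 31529 bases of merged exons). By longest transcripts PODXL was above MAGI2 in 6 of 8 libraries, and the other neighbours among the 7 kept their order in 8 of 8.

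**Figure D1:**
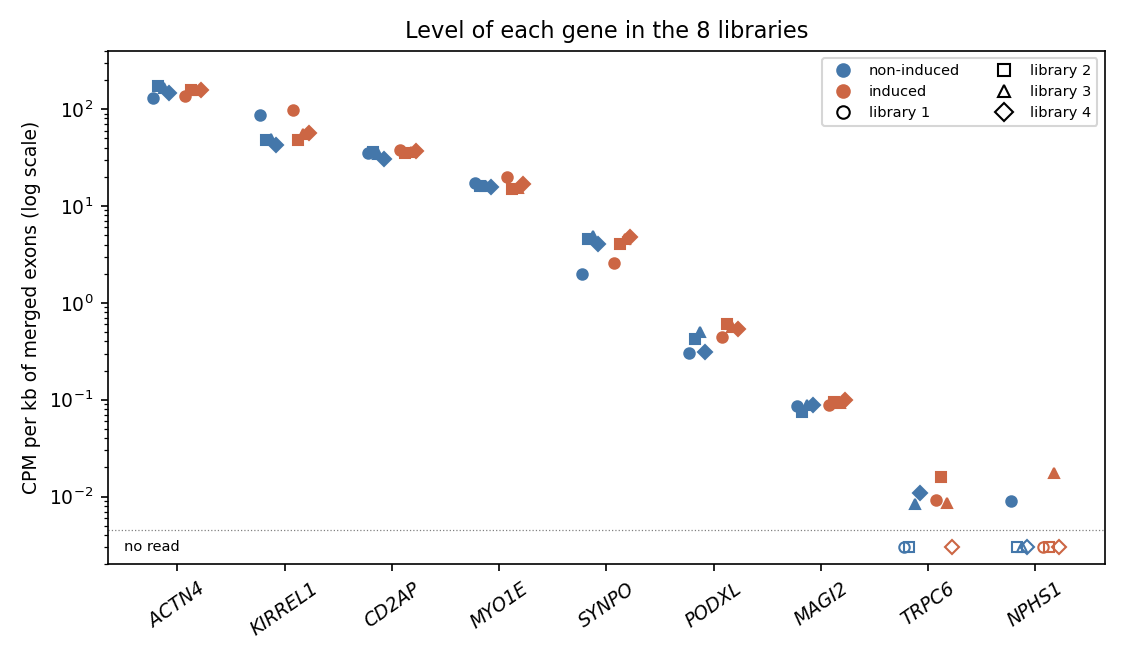
Level of the 9 genes in CPM per kb of merged exons (log axis), 1 point per library, with open points below the dotted line for libraries without a read. ACTN4 lies near 152, MAGI2 near 0.0891, and NPHS1 and TRPC6 have at most 2 reads in any library.

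Nephrin, the receptor that defines the slit diaphragm, was at the limit of detection. NPHS1 (ENSG00000161270, GRCh38 chromosome 19, 35825964 to 35869287, minus strand) gave 1, 0, 0 and 0 reads without induction (libraries 1 to 4, in this order throughout) and 0, 0, 2 and 0 with it. Its 3 reads in all amount to 0.0185 CPM, with an exact 95% Poisson interval of 0.00381 to 0.054 that covers counting error only. A library without a read could have held up to 3, or 0.131 to 0.179 CPM. KIRREL2, which overlaps NPHS1 exons by 107 bases on the opposite strand and encodes another slit diaphragm protein, had 3 reads over the 8 libraries. APLP1, which overlaps NPHS1 exons by 232 bases on the opposite strand, had 66 to 130 reads per library. The library kit kept strand, but whether counting used it is not known, so reads of genes that overlap on opposite strands cannot be told apart.

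NEPH1, the partner of nephrin, was by contrast the second most abundant of the 9. KIRREL1 (ENSG00000183853, chromosome 1, 157993273 to 158100262, plus strand) reached 680.0, 379, 383 and 335 CPM without induction. With induction it reached 763, 377, 439 and 449 CPM. Both libraries numbered 1 were high, and the groups overlapped. The group means were 444 ± 159 and 507 ± 174 CPM (SD, n = 4 each), a log2 change of 0.19 (SE 0.28, edgeR adjusted p = 0.912). With the replicate number as a block it was 0.19 (SE 0.06, adjusted p = 0.0653), higher in 3 of 4 pairs. It passed in 3 of the block alternatives: with DESeq2 (adjusted p = 0.0237), without robust estimation (0.0425) and without pair 2 (0.00411). KIRREL1 made up 97.2% of the KIRREL family by level per length (96.2% to 98.8% across libraries), against 2.77% for KIRREL3.

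The adaptors split between one abundant and one scarce transcript. CD2AP, which links nephrin to actin and to endocytosis (ENSG00000198087, chromosome 6, 47477789 to 47627263, plus strand), stood at 239, 242, 230.2 and 206 CPM without induction. With induction it stood at 255, 237, 243 and 247 CPM. The groups overlapped, and its root mean square deviation over the 8 libraries, 0.0873 in log2 CPM, was the smallest among the 7 tested members. Its log2 difference between the groups was 0.10 (SE 0.06, edgeR adjusted p = 0.702), which did not pass the test. SH3KBP1, its paralog CIN85, gave 22.6% of the level of this pair and CD2AP 77.4%. SH3KBP1 had a log2 change of -0.19 with the block (SE 0.04, adjusted p = 0.013), and its call was lost in 3 of 8 block alternatives. Without the block SH3KBP1 did not pass (edgeR adjusted p = 0.604).

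MAGI2, a PDZ-domain scaffold that binds nephrin (ENSG00000187391, chromosome 7, 78017057 to 79453574, minus strand), had 55, 51, 60 and 46 reads without and 55, 68, 61 and 60 with induction. That is 2.67 ± 0.193 and 2.95 ± 0.154 CPM (SD, n = 4), with overlapping groups and a log2 change of 0.15 (SE 0.13, edgeR adjusted p = 0.814). The induced library was the higher in 4 of 4 pairs, by 0.02 to 0.31 in log2, and MAGI2 did not pass with the block (adjusted p = 0.547). By merged exons its paralogs MAGI1 and MAGI3 stood above it in 8 of 8 libraries, at 1.54 and 2.07 against 0.0891 CPM per kb. The paralogs were not compared by longest transcripts, by which MAGI2 stood at 0.409 CPM per kb. The transcript from its opposite strand, the long noncoding RNA MAGI2-AS3, was far more abundant than MAGI2, with 932 to 1456 reads per library and 5.04 CPM per kb. The 2 genes share 172 bases of exon. MAGI2-AS3 averaged 52.9 ± 2.74 CPM in the non-induced and 64.3 ± 1.61 CPM in the induced libraries (SD, n = 4), a log2 change of 0.28 (edgeR adjusted p = 0.162, and 0.00129 with the block). It was named after its values were seen.

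TRPC6, the cation channel of the slit diaphragm (ENSG00000137672, chromosome 11, 101451564 to 101872562, minus strand), was also at the limit of detection. It had 0, 0, 1 and 1 reads without induction and 1, 2, 1 and 0 with it, or 0.037 CPM over all reads (exact 95% Poisson interval 0.0136 to 0.0805). The order of TRPC6 and NPHS1 cannot be read from so few reads: TRPC6 was above NPHS1 in 4 of 8 libraries. Other channels of the family were present: TRPC1 at 4.57 CPM per kb and TRPC4 at 5.14, with 3529 and 3532 reads in all. Neither passed the test on induction, with log2 changes of -0.06 and 0.11 (edgeR adjusted p = 0.875 and 0.903). TRPC5 had 4 reads and TRPC7 had 0.

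Among the members that act on actin in the foot process, ACTN4, MYO1E and SYNPO, ACTN4 was highest and SYNPO lowest. ACTN4, the alpha-actinin that crosslinks actin (ENSG00000130402, chromosome 19, 38647649 to 38731583, plus strand), gave 787, 1047, 1000.2 and 883 CPM in the non-induced and 841, 958, 949 and 958 CPM in the induced libraries. In each group library 1 was the lowest, and the groups overlapped almost wholly. Between the groups the log2 difference was 0.00 (SE 0.09, edgeR adjusted p = 0.996), and its approximate 95% interval in the block fit ran from -0.08 to 0.09. ACTN1, the other non-muscle alpha-actinin, reached 77.4 ± 14.1 CPM per kb against 152 ± 14.0 for ACTN4 (SD, n = 8). ACTN4 was the higher of the pair in 8 of 8 libraries. CAPN12, on the opposite strand, overlaps ACTN4 exons by 868 bases and had 73 to 161 reads per library against 14769 to 22427 for ACTN4.

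MYO1E, a class I myosin that joins membrane to actin (ENSG00000157483, chromosome 15, 59132434 to 59372900, minus strand), stood at 158, 147, 147 and 142 CPM without induction. It stood at 182, 136, 140.2 and 155 CPM with it, so that induced library 1 was the highest and induced library 2 the lowest of all. Induced and non-induced libraries differed by 0.04 in log2 (SE 0.09, edgeR adjusted p = 0.944). Among class I myosins, MYO1C stood above MYO1E per length in 8 of 8 libraries, at 64.7 against 16.6 CPM per kb, and MYO1D stood below it in 8 of 8, at 11.3 CPM per kb.

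SYNPO, the actin-associated synaptopodin of differentiated podocytes (ENSG00000171992, chromosome 5, 150601080 to 150659220, plus strand), stood at 20.2, 46.3, 50.5 and 41.3 CPM without induction. With induction it stood at 26.6, 42.0, 47.1 and 49.5 CPM. Library 1 was the lowest of its group both times, and the other 6 libraries lay between 41.3 and 50.5 CPM. The difference was 0.06 in log2 (SE 0.29, edgeR adjusted p = 0.979), and 0.00 without both libraries numbered 1. SYNPO gave 97.2% of the level of its family, with SYNPO2 and SYNPO2L at 0.0693 and 0.0479 CPM per kb.

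PODXL, the sialomucin of the free surface (ENSG00000128567, chromosome 7, 131500262 to 131558217, minus strand), was scarce, and it was the only member to pass in edgeR's fit with the replicate block. It had 42, 62, 73 and 36 reads without and 61, 95, 82 and 71 reads with induction. In CPM these were 2.09, 2.89, 3.41 and 2.15 against 3.09, 4.16, 3.9 and 3.73. Induced library 1 lay below non-induced library 3, so the groups overlapped, but the induced library was the higher in 4 of 4 pairs. The same held for MAGI2, which did not pass. With the block PODXL rose, with means going from 2.64 ± 0.631 to 3.72 ± 0.456 CPM (SD, n = 4), a log2 change of 0.49 (SE 0.14, edgeR adjusted p = 0.035 with the block). Without the block the change was 0.49 (SE 0.19) and did not pass (edgeR adjusted p = 0.467). The block call was lost without pair 1, 2 or 4 (adjusted p = 0.0874, 0.0864 and 0.155) and with DESeq2 (0.234). PODXL2 (endoglycan), a paralog of the same sialomucin family, was more abundant per length in 8 of 8 libraries, at 14.5 against 0.462 CPM per kb, and had a log2 change of -0.10 with the block (adjusted p = 0.243).

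**Figure D2:**
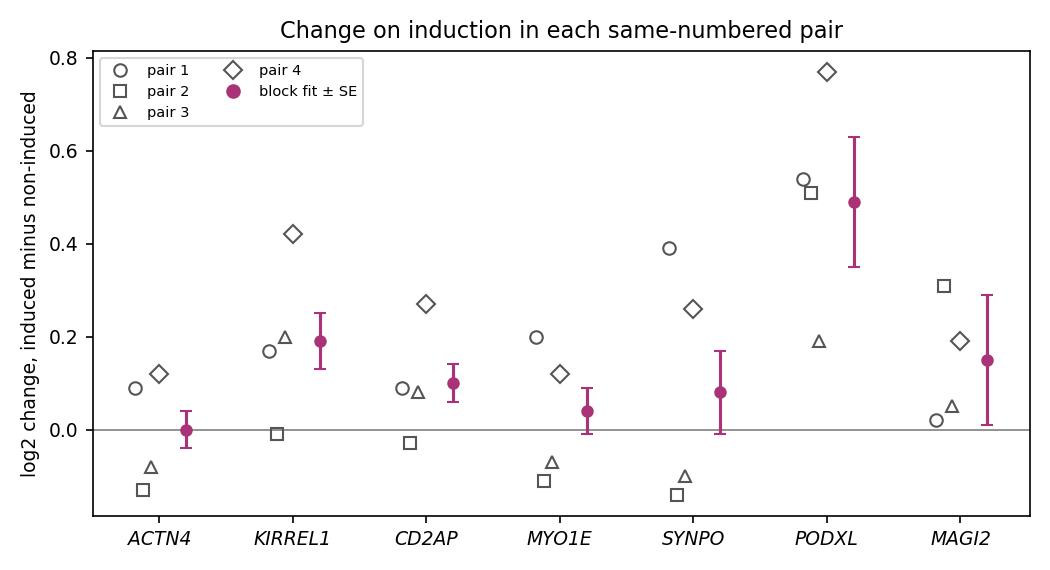
Log2 change (induced minus non-induced, from log2 CPM with a prior count of 2) of the 7 tested genes in each same-numbered pair, and the block fit with its SE. All 4 pairs of PODXL lie between 0.19 and 0.77 and all 4 of MAGI2 between 0.02 and 0.31. ACTN4, MYO1E and SYNPO have 2 pairs above and 2 below 0.

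Without the block, 0 of the 7 tested members passed, where 0.0384% of all tested genes did. By an unadjusted edgeR p under 0.05 there was 1 of 7 without the block (PODXL), where 9.38% of all tested genes were, and 3 of 7 with it, where 28.5% were. DESeq2 without the block also called 0 members, and 1.53% of all genes. With the block 1 of 7 passed, or 14.3%, where 13.8% of all tested genes did, 7.51% higher and 6.29% lower. The share among the members was thus near that over all genes. Their median log2 change was 0.10, against 0.00 over all tested genes. None of the 7 had groups that did not overlap in CPM, which 7.04% of tested genes had.

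Sums of some markers of other cell types did not overlap between the groups, as measured here without a test. Among single tested genes, 7.04% had groups that did not overlap in CPM. The summed level of 8 parietal and tubular markers was 616 to 682 CPM without and 411 to 574 CPM with induction. PAX8 (457 ± 26.4 to 361 ± 58.6 CPM) and CLDN1 (171 ± 10.9 to 127 ± 20.4 CPM; SD, n = 4) made up most of it. Other members of the list had the higher mean with induction: PAX2 averaged 17.1 and 22.0 CPM and CDH16 0.993 and 1.5 CPM. Among the 8, 4 reached 1 CPM, and AQP1, CUBN and SLC34A1 stayed below it beside LRP2. Leukocyte markers, of which only CSF1R among 5 reached 1 CPM, summed to 3.41 to 3.92 and 2.19 to 2.94 CPM, with PTPRC at 1 read in all and CD68 at 0.604 and 0.683 CPM. None of 5 endothelial markers reached 1 CPM, and they summed to 0.359 to 0.887 and 0.0525 to 0.35 CPM. These endothelial sums are near the limit of detection, and the marker with the most reads, CDH5, had 45 in all. Mesangial markers reached 1 CPM in 2 of 5 genes and fibroblast markers in 2 of 5. Sums of mesangial (12.9 to 14.4 and 13.3 to 18.8 CPM) and fibroblast markers (1345 to 1566 and 1268 to 1588 CPM) overlapped between the groups. The fibroblast sum was mostly COL1A1, with a mean of 1374 CPM, beside LUM at 68.8 CPM. COL1A2 had 1 read, COL3A1 13 and DCN 25 over all 8 libraries. The part of all these markers in the PODXL result and in the lists of related genes was not tested. In such bulk samples of a cell line, fewer cells expressing a gene and less of its RNA per cell cannot be told apart.

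KIRREL1 and SYNPO varied most, with libraries numbered 1 apart from the others in both groups. Non-induced library 1 lay above the mean of libraries 2 to 4 by 0.90 in log2 CPM for KIRREL1 and induced library 1 by 0.86. For SYNPO the same differences were -1.18 and -0.79. The median absolute difference over all tested genes was 0.23 in each group, and 6.08% of tested genes lay as far as KIRREL1 in one direction in both libraries, and 6.93% as far as SYNPO. PODXL was lower in both libraries numbered 1 (-0.39 and -0.34) and CD2AP and MAGI2 were within 0.11 of the others. Without these 2 libraries and without the block, the log2 change was 0.20 for KIRREL1 (edgeR adjusted p = 0.17) and 0.46 for PODXL (adjusted p = 0.192), and again 0 members passed, where 3.44% of all tested genes did. Leaving out non-induced library 1 alone gave 0.47 for KIRREL1 and leaving out induced library 1 alone gave -0.08, while its direction was kept without both and in all 9 block fits (0.11 to 0.26).

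**Figure D3:**
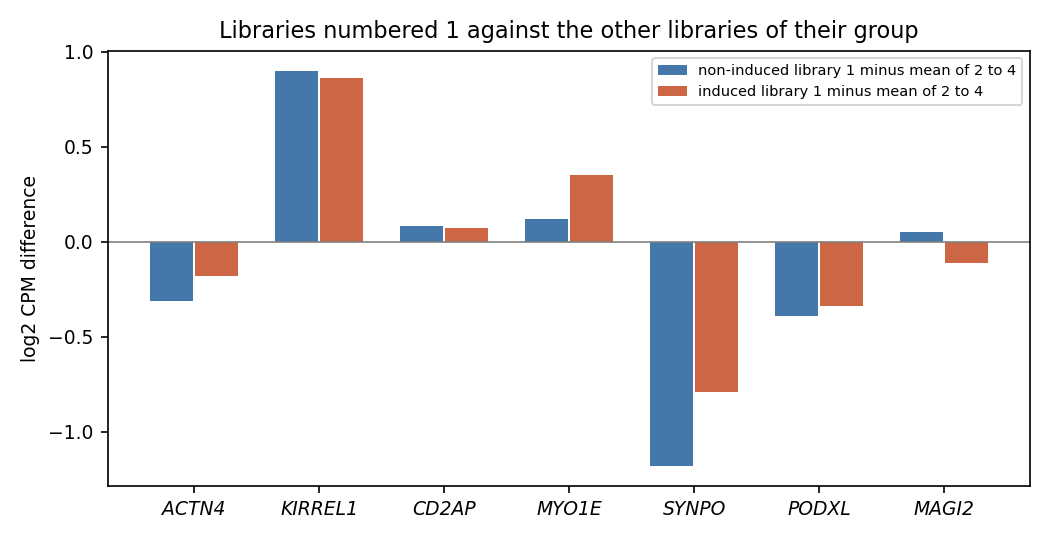
Difference in log2 CPM between library 1 and the mean of libraries 2 to 4 of the same group, for the 7 tested genes. KIRREL1 is higher by 0.90 and 0.86 and SYNPO lower (-1.18 and -0.79) in both groups.

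The genes whose pattern over the 8 libraries was most like a member's were taken from 13364 tested genes with a mean of at least 1 CPM, by the root mean square difference of centred log2 CPM. For KIRREL1, whose own deviation was 0.402, they were SREBF2 (0.04), ZNF165 (0.0429) and TBC1D4 (0.0772). For SYNPO (0.447) they were ARHGEF37 (0.0964), NYNRIN (0.104) and IRS1 (0.106). For PODXL (0.34) they were FAT1 (0.107), CRIM1 (0.117) and OSBP2 (0.128). FAT1 is itself a slit diaphragm partner and is described below. This likeness is a description over 8 libraries.

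Lists of related genes, 4 in all, were read from the same fit: slit diaphragm partners, actin proteins of the foot process, the podocalyxin complex and paralogs of the members. Of their 78 genes 63 were tested, with a median log2 change of -0.03. Without the block 0 passed (5 of 63 had an unadjusted edgeR p under 0.05, where 9.38% of all tested genes did, and DESeq2 called 1, where it called 1.53% of all). With the block 6 rose and 10 fell, 25.4% of 63, and without pair 3 the number that passed was 10, or 16.1% where 8.02% of all genes passed. The share over all tested genes was 13.8%, and 18.6% among genes with a mean of at least 10 CPM. These lists held abundant genes, with a median of 171 CPM against 21.9 CPM over all tested genes.

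Of 17 tested slit diaphragm partners 3 rose and 4 fell with the block, or 41.2%. The share was 13.8% over all tested genes and 18.6% among those with a mean of at least 10 CPM. The giant cadherin FAT1 rose by 0.50 (SE 0.05, edgeR adjusted p = 0.000355) and the junction scaffold TJP1 by 0.23 (adjusted p = 0.00192). EFNB1, the ephrin-B1 of the slit diaphragm, fell from 18.8 ± 5.05 to 12.8 ± 1.9 CPM, a log2 change of -0.54 (SE 0.08, adjusted p = 0.000702). NCK2, the adaptor that binds phosphorylated nephrin, had a log2 change of -0.27 (adjusted p = 0.00117). PLCE1 (0.46) and the nephrin kinase FYN (-0.27), named after their values were seen, and SH3KBP1 were the others. FAT1, TJP1, EFNB1, NCK2 and PLCE1 passed in 8 of 8 block alternatives, and FYN was lost in 3. Without the block the edgeR adjusted p was 0.257 for FAT1, 0.642 for TJP1, 0.39 for EFNB1 and 0.596 for NCK2. It was 0.424 for PLCE1 and 0.727 for FYN.

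Among 30 tested actin genes the block fit had 1 that rose and 5 that fell, or 20.0%. That is near the 18.6% among all genes with a mean of at least 10 CPM, beside 13.8% of all tested genes. The related VASP and ENAH moved in opposite directions. VASP, which speeds actin filament growth, had a log2 change of -0.29 (SE 0.04, edgeR adjusted p = 0.000302), while its relative ENAH rose by 0.21 (SE 0.04, adjusted p = 0.00484). The Arp2/3 subunit gene ACTR3 had -0.22 and the capping protein gene CAPZB -0.15 (adjusted p = 0.00118 and 0.01). CFL1 (-0.14) and RAC1 (-0.11), named after their values were seen, were the others that fell, and they were lost in 2 and 5 of 8 block alternatives. Without the block the adjusted p values of VASP, ENAH, ACTR3 and CAPZB were 0.634, 0.5, 0.871 and 0.584. Those of CFL1 and RAC1 were 0.879 and 0.74.

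The podocalyxin complex couples PODXL to actin through ERM proteins. With the block, 2 of its 6 tested genes rose and 1 fell. The block fit called 13.8% of all tested genes and 18.6% of those with a mean of at least 10 CPM. These 6 genes were abundant, with a median of 311 CPM, and a difference from those shares was not tested. EZR, the ezrin of podocytes, rose from 664 ± 128 to 779.5 ± 145 CPM, a log2 change of 0.23 (SE 0.04, edgeR adjusted p = 0.000839), and passed in 8 of 8 block alternatives. RDX rose by 0.13 and MSN had -0.11 (adjusted p = 0.037 and 0.0457), and each was lost in 6 of 8. Without the block the adjusted p values of EZR, RDX and MSN were 0.781, 0.895 and 0.895. The apical phosphatase PTPRO and the chloride channel protein CLIC5, both podocyte markers, had 16 and 32 reads in all and were not tested.

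SH3KBP1 was the only one of 15 tested paralogs that passed with the block, or 6.67%, beside 13.8% of all tested genes. ACTN1 and MYO1D had log2 changes of -0.08 and -0.11 with the block (edgeR adjusted p = 0.17 and 0.144), and MAGI3 had 0.22 (adjusted p = 0.085).

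**Figure D4:**
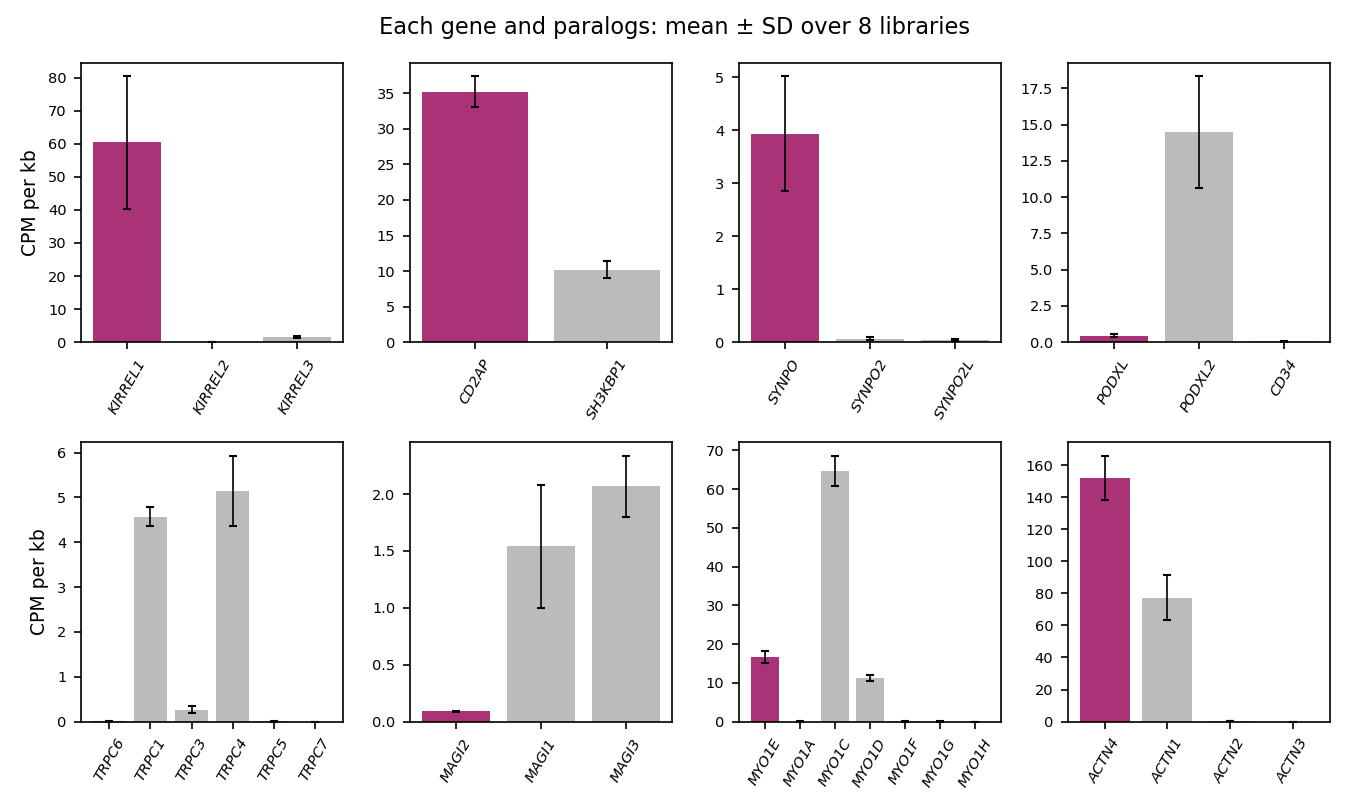
CPM per kb of merged exons for 8 of the genes (first bar of each panel) and of paralogs, mean and SD over 8 libraries, with a separate linear axis from 0 in each panel. KIRREL1, CD2AP, SYNPO and ACTN4 lead their families, while PODXL, TRPC6, MAGI2 and MYO1E stand below at least 1 paralog.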

How the data were processed

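Total RNA of 8 libraries was sequenced as single reads of 75 bases. The deposited table holds raw read counts per Ensembl gene, whole numbers, and the submitters' processing notes name HTSeq 0.11.1, HISAT2 2.1.0, Trimmomatic 0.38, DESeq2 1.24.0 and bcl2fastq, with GRCh38 and hg38 as builds. The gene annotation and the strand setting of the counting were not stated. The second deposited table, the same counts divided by 1 factor per library, was not used.

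Symbols came from a current name table, coordinates and lengths from GENCODE 29 (GRCh38). Genes were kept by filterByExpr (minimum count 10), scaled by TMM and tested in edgeR 4.0.16 (quasi-likelihood, robust, two-sided, Benjamini-Hochberg FDR 0.05 over all 15637 genes), with a check on simulated data. The design had no block. Same-numbered libraries correlated at 0.648 to 0.911 in their deviations from the group means over 11500 genes (other pairs -0.775 to 0.667), and the pairing rests on this and on the shared numbers. Each library correlated best with its own number. The replicate block fit is therefore given where it changed a call. Alternatives were DESeq2 1.42.0, other scalings, filters and left-out libraries.

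The members and lists were chosen with earlier results of these data known. Named genes were all members, up to 4 genes per list called with the block (smallest p first, or 2 where none was called), paralogs with their levels, and the 3 genes most like each member, of which some are printed. Some genes of the lists are not reported here.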

Additional observations from a re-analysis of the deposited data

Results flagged for a closer look

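In 14 combinations of a tested member and a group of 4 libraries, 3 had 1 library far from the other 3. Chance alone gives such a gap in about 1 of 20 groups where the groups are independent. The 14 combinations share the same 8 libraries, so 3 of 14 cannot be set against that rate. KIRREL1 was highest in non-induced library 1, at 680.0 CPM, with a gap of 0.86 of the group's range to the next library. ACTN4 was lowest in induced library 1, at 841 CPM, with a gap of 0.918 of the range. MAGI2 was lowest by CPM in non-induced library 2, at 2.38 CPM or 51 reads, with a gap of 0.845 of the range. By reads non-induced library 4 was lower, with 46. The exact 95% Poisson interval of the summed non-induced MAGI2 reads, 2.32 to 3.04 CPM, covers 2.38 CPM. SYNPO, lowest in both libraries numbered 1, did not reach the threshold for such a gap.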

How the results depend on the processing

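The count of members past the threshold was 0 without the block under DESeq2, RLE, upper-quartile and library-total scaling, no filter, a filter at 10 CPM (which removed PODXL and MAGI2), no robust estimation, without both libraries numbered 1, and with each library left out. With the replicate block it was 1, and also 1 with DESeq2, upper-quartile scaling or library totals, and 2 without robust estimation. Leaving out each pair gave 0 to 1. The block call was PODXL, but KIRREL1 in its place with DESeq2 (adjusted p = 0.0237) and without pair 2 (0.00411), and both without robust estimation (0.0425 and 0.04). The count of related genes was 0 without the block, 1 with DESeq2, 8 without both libraries numbered 1 (added after seeing the data) and 16 with the block, in fits that called 6, 240, 543 and 2159 of all tested genes. In block alternatives it was 11 with DESeq2, 18 with upper-quartile scaling, 16 with library totals, 15 without robust estimation, and 13, 15, 10 and 11 without pair 1, 2, 3 and 4. Across the block fits the share called was 16.1% to 28.6% of these genes and 5.74% to 14.1% of all.

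Of 148 alternative log2 changes of the 6 tested members other than ACTN4, 8 changed sign (values that round to 0.00 not counted), none past the threshold. ACTN4, at 0.00, had no direction to keep and ranged from -0.08 to 0.05. KIRREL1 ranged from -0.08 to 0.47 in log2 with single libraries left out. SYNPO ranged from -0.16 to 0.22 with single libraries left out and from -0.01 to 0.16 with a pair left out of the block fit. MYO1E ranged from -0.05 to 0.10 and from -0.03 to 0.09 in the same way, and was -0.02 without both libraries numbered 1. PODXL stayed between 0.39 and 0.64 in all 25 settings. Depth limits NPHS1 and TRPC6, and counting error alone gives PODXL an interval of 2.33 to 3.06 CPM without and 3.33 to 4.18 CPM with induction (exact 95% Poisson on summed reads).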
